A study of Mus musculus with 6 samples.

Results

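The collagen chain genes of the mouse large intestine were examined as a family. Members were the genes whose symbol is Col, a number, the letter a and a second number, and 44 of the 35434 symbols in the expression table met this rule. The series compared mice with inflammatory bowel disease (IBD) that had received regulatory T cells (Tregs), labelled Ctrl-Tregs or Lenv-Tregs, the second named for lenvatinib, an inhibitor of receptor tyrosine kinases. RNA of the large intestine was sequenced in 6 libraries, with 3 titled int 2 and 3 titled int 3. The labels do not say which title stands for which transfer, so every difference is given as int 3 minus int 2 and neither group is assigned a treatment. Both groups share the tissue and the disease model, and the strain, age and sex of the mice, the way the disease was induced and the time of sampling are not stated in the labels at hand. Whether each library is a mouse of its own is not stated, so every p-value refers to the spread among the libraries of a group, which may be technical. Values are FPKM, fragment counts scaled by gene length in kilobases and by library size, and in every sentence that lists 3 values of a group they stand in the order of replicates 1, 2 and 3.

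Collagens are matrix proteins in which several chains wind into a helix, and each chain has its own gene. Fibrillar collagens, chiefly types I, III and V in the gut, assemble into the tension-bearing fibres of the submucosa and are made mainly by fibroblasts and smooth muscle cells. Type IV collagen forms the sheet-like network of basement membranes under the epithelium and around vessels, nerves and muscle cells. The remaining chains form beaded filaments (type VI), decorate fibrils (the fibril-associated group), lie in or beside the basement membrane zone (types XV and XVIII) or span the cell membrane. In whole tissue, fewer cells of a type and less RNA per cell cannot be told apart.

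The steps between low FPKM values gave totals of 34.0 to 35.1 M fragments per library (M, 1e6), so depth was even. Whole fragments were recovered for 42 of the 44 chains, and the int 2 libraries lay far closer together than the int 3 libraries. Over the 26 chains that could be tested, the median SD of log2(FPKM + 1) was 0.0509 in int 2 and 0.257 in int 3, against 0.0486 and 0.137 over all tested genes. For 21 of the 26 chains int 3-1 lay between int 3-2 and int 3-3, as it did for 73.5% of all 12525 tested genes. The p-values count int 3-1 as a library of its own. With 3 interchangeable libraries and genes that vary separately, each library would lie between the others equally often. Whether int 3-1 varied independently of int 3-2 and int 3-3 was not tested, and if it did not, the p-values are too small. Hoxb13, a homeobox gene whose expression marks the far end of the hindgut, stood at 288, 285 and 288 FPKM in int 2 and 146, 16.4 and 267 in int 3, so the int 3 libraries differed in a marker of position along the gut, and the part of this in the collagen values was not tested. With 174 FPKM in int 3-1 and 26.9 in int 3-2, the sum of the 5 listed distal Hox genes was below its int 2 range of 308 to 312. In int 3-3, at 310, the sum lay within that range, but its genes did not. Hoxb13 was below every int 2 library there. Hoxd13, Hoxa13, Hoxd12 and Hoxd11 were above every int 2 library, at 26.4, 15.3, 0.574 and 0.965 FPKM. None of the 5 was at 0 in any library, and 0 of the 3 tested passed (limma, 0 at an unadjusted p under 0.05).

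Summed collagen FPKM was higher in every int 3 library than in any int 2 library. On the log2(FPKM + 1) scale, which understates the change of low genes, the 4 largest changes among the chains that rose were those of Col18a1, Col4a1, Col4a2 and Col15a1. By the ratio of mean FPKM the fibrillar chain Col27a1, at 2.08-fold, came second to Col18a1, above Col4a2, Col4a1 and Col15a1 at 1.84-fold, 1.83-fold and 1.71-fold. All 44 chains together summed to 409.7, 409 and 408 FPKM in int 2 and 587, 642 and 538 in int 3. Every int 3 library lay above every int 2 library, by 1.44-fold on average, and the same held within each class. Fibrillar chains summed to 232, 232 and 233 FPKM in int 2 and 314, 329 and 294 in int 3, 1.34-fold more. Type IV chains summed to 65.1, 64.3 and 64.5 FPKM in int 2 and 113, 144 and 88.6 in int 3, 1.79-fold more and with the widest spread in int 3, from int 3-3 at the low end to int 3-2 at the high end. All other chains summed to 113, 113 and 111 FPKM in int 2 and 159.9, 169 and 155 in int 3, 1.44-fold more. An exact two-sided permutation test of each sum gave p = 0.1, the smallest p that 3 libraries against 3 allow.

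Of the 44 chains 26 reached FPKM 1 in at least 3 libraries and were tested with limma on log2(FPKM + 1), with adjustment over all 12525 tested genes. At an adjusted p under 0.05, 14 chains were higher in int 3, 1 was lower and 11 did not pass, so 57.7% of the tested chains were called against 15.3% of all tested genes (8.64% higher and 6.70% lower). The median log2 change of the 26 chains was 0.38, beside 0.03 over all tested genes. In 16 chains the int 3 values did not overlap the int 2 values, 15 higher and 1 lower, beside 40.4% of all tested genes. By class, 6 of 7 tested fibrillar chains, 2 of 4 type IV chains and 6 of 15 other chains rose, and the chain that fell, Col8a2, was among the others. Col8a2 met the filter only through its int 2 values, and no other tested chain met it through 1 group alone. With 1 library left out, 5 to 19 chains rose: 5, 6 and 5 without int 2-1, int 2-2 and int 2-3, and 5, 14 and 19 without int 3-1, int 3-2 and int 3-3. Over all 12525 tested genes, 1082 rose with all libraries and 379, 374 and 385 without int 2-1, int 2-2 and int 2-3. Without int 3-1, int 3-2 and int 3-3 they numbered 372, 1432 and 3124. The count over all genes thus moved in the same direction as that of the chains, except without int 3-2, where the chains stayed at 14. Without int 2-1, int 2-2, int 2-3 or int 3-1, 2 fibrillar chains, 0 type IV chains and 3 or 4 of the other chains rose, and 10 of the other chains did so without int 3-3. With int 2 averaged to 1 sample 0 chains passed in limma, although 11 of the 26 had an unadjusted p under 0.05. On the TPM scale, where the median log2 change over all tested genes was 0.10, 13 chains rose and 67.7% of all calls were higher in int 3, against 56.3% on the FPKM scale.

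**Figure D1:**
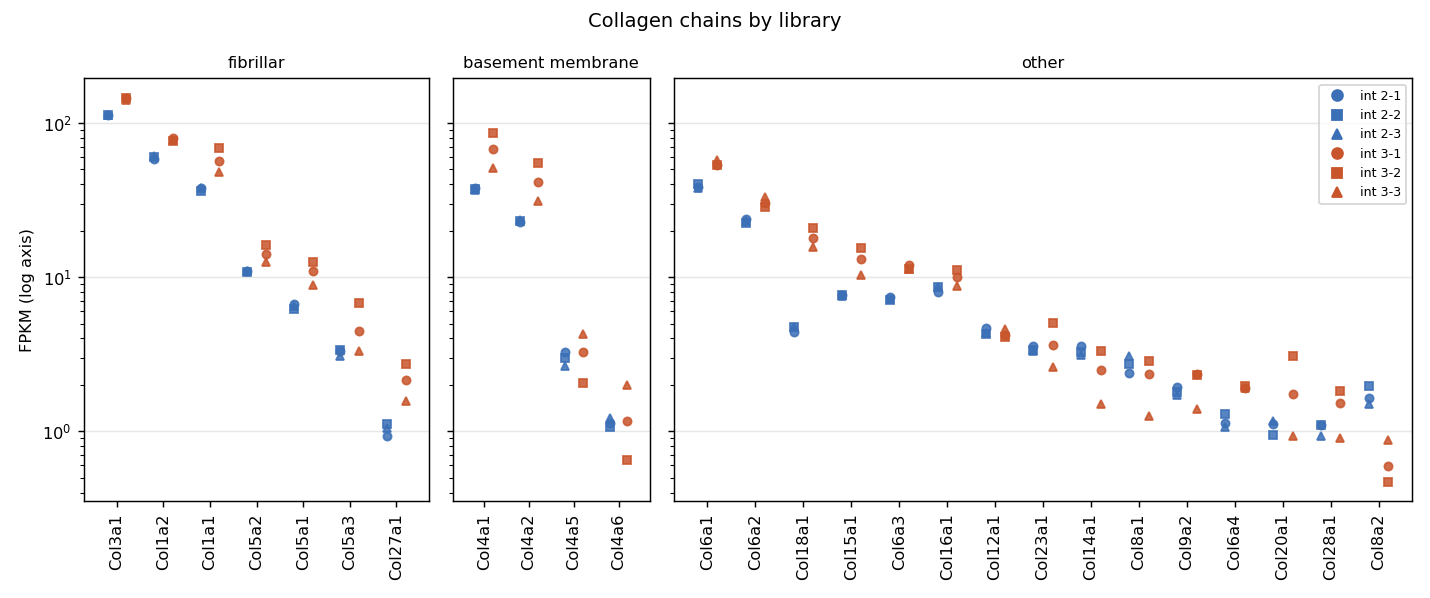
FPKM of the 26 tested collagen chains in each of the 6 libraries, on a log axis, by class and in the order of their mean. Points are single libraries, blue for int 2 and orange for int 3, with the replicate number shown by the shape. The int 2 points of a chain span a factor of at most 1.32, in Col8a2, while the int 3 points of Col4a1 spread from 51.1 to 86.2. In Col6a4 the int 2 points span a wider factor than the int 3 points, 1.21 against 1.03.

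**Figure D2:**
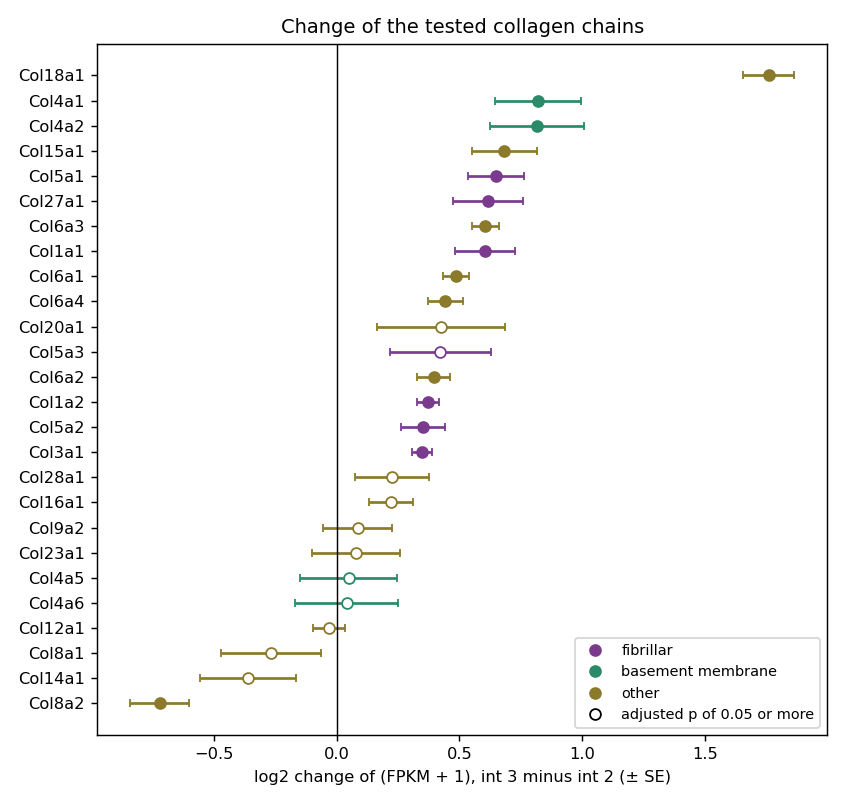
Log2 change of (FPKM + 1), int 3 minus int 2, for the same 26 chains, with bars of ± 1 SE from limma. Filled points passed at an adjusted p under 0.05. Col18a1 stands at 1.76, the next chain, Col4a1, at 0.82, and Col8a2 at -0.72.

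Promoter sequences were at hand for 35 of the 44 chains, with 38 annotated starts (RefSeq, GRCm38.p6), and the 150 bases before each start were searched for 3 core promoter motifs on both strands. These were the CCAAT box, which reads ATTGG on the opposite strand, the TATA box as TATAAA or, on the opposite strand, TTTATA, and the GC box bound by Sp1, as GGGCGG or, on the opposite strand, CCGCCC. The stretches shown belong to 4 of the chains that rose and to Col8a2, the 1 chain that fell past the threshold. Another 11 tested chains did not pass. Col8a2 met the filter through int 2 alone, so it had to be lower in int 3. The stretches are cut to the part that lies outside annotated exons and genes. They are given 5′ to 3′ on the strand of the gene, with motif matches in capitals. Adjacent or overlapping matches run together in 1 block of capitals.
Col18a1 (chr10:77166549-77166680, minus strand): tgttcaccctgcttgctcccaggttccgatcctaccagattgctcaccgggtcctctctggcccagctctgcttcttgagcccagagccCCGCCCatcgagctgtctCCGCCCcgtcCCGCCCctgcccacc
Col6a3 (chr1:90844002-90844121, minus strand): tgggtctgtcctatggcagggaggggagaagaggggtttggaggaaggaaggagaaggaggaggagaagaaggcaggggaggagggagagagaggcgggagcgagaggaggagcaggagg
Col3a1 (chr1:45311388-45311537, plus strand): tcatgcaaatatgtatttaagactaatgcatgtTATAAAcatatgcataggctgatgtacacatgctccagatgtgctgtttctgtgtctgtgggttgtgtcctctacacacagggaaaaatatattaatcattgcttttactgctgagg
Col5a1 (chr2:27886275-27886380, plus strand): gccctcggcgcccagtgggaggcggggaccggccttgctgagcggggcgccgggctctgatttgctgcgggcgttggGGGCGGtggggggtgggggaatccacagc
Col8a2 (chr4:126286644-126286792, plus strand): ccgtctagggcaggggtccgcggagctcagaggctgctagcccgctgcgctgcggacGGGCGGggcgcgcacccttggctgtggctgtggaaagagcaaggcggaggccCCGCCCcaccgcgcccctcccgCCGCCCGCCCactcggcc

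Col18a1, here the more upstream of its 2 annotated starts, held 3 matches to GGGCGG and no TATAAA, and Col8a2, which moved the other way, held 4, of which a pair overlapped. Col3a1 held a TATAAA match and no GGGCGG, Col5a1 held 1 GGGCGG match and Col6a3 held none of the 3 motifs. Over all member windows, 19 of 38 held GGGCGG, 8 held CCAAT and 4 held TATAAA. Of all 32851 windows of this length 28.6%, 24.5% and 7.57% held them. A match is a description of the letters and not a measured binding site, and a table by gene does not tell from which start of Col18a1 its transcripts came.

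The abundant fibrillar chains all rose, by modest factors. Col3a1, the only chain of type III collagen and the most abundant collagen transcript here, stood at 113, 114 and 113 FPKM in int 2 and 146, 146 and 142 in int 3. Col1a2, the second chain of type I collagen, stood at 58.8, 60.0 and 60.6 FPKM in int 2 and 79.5, 76.0 and 77.9 in int 3. The int 3 libraries were nearly level for both, and neither gene's groups overlapped (Col3a1, log2 change 0.35, SE 0.04, limma adjusted p = 0.00448; Col1a2, log2 change 0.37, SE 0.04, limma adjusted p = 0.00403). Col1a1, which supplies most chains of the type I helix, stood at 37.6, 36.4 and 37.9 FPKM in int 2 and 57.0, 68.4 and 48.2 in int 3. It rose as well (log2 change 0.61, SE 0.12, limma adjusted p = 0.0232), and here the int 3 libraries were graded, with int 3-2 highest and int 3-3 lowest. Together the 3 genes made up 51.2% to 51.8% of all collagen FPKM in int 2 and 45.2% to 49.7% in int 3.

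Type V collagen co-assembles with type I and sets fibril diameter. Col5a1 stood at 6.72, 6.19 and 6.47 FPKM in int 2 and 10.96, 12.5 and 8.92 in int 3 (log2 change 0.65, SE 0.12, limma adjusted p = 0.0156). Its partner Col5a2 stood at 10.9, 10.7 and 10.98 FPKM in int 2 and 14.2, 16.1 and 12.5 in int 3 (log2 change 0.35, SE 0.09, limma adjusted p = 0.0473). Both rose, with no overlap between the groups and the same order within int 3 as Col1a1. Col5a3, the third chain of the type, stood at 3.31, 3.35 and 3.06 FPKM in int 2 and 4.48, 6.77 and 3.31 in int 3. Its int 3-3 value fell within the int 2 range and it did not pass (limma adjusted p = 0.211, and 0.0202 without int 3-3). Col27a1, a minor fibrillar chain best known from cartilage, stood at 0.931, 1.12 and 1.06 FPKM in int 2 and 2.17, 2.73 and 1.57 in int 3. It rose from 1.04 ± 0.0965 to 2.16 ± 0.584 FPKM (SD, n = 3 libraries each; log2 change 0.62, SE 0.14, limma adjusted p = 0.0357).

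The other 4 fibrillar chains were not tested. Col2a1, the main collagen of cartilage, was listed at 0 in all 6 libraries. Col11a1 and Col11a2, also cartilage chains, ranged from 0.0246 to 0.166 and from 0.0700 to 0.231 FPKM. Col24a1, a fibrillar chain known from bone, came from 9, 9 and 15 fragments in int 2 and 35, 29 and 28 in int 3. Its groups did not overlap, and it was the 1 untested chain that passed when no filter on low values was applied (limma adjusted p = 0.028). Of the 5 listed cartilage and bone markers Acan was at 0 in all libraries, Matn1 and Ibsp in all but 1, and all 5 summed to 3.45 to 4.52 FPKM in int 2 and 2.48 to 5.59 in int 3. Among the chains of this class that rose, Col1a1, Col5a1, Col5a2 and Col27a1 no longer passed without int 2-1, int 2-2, int 2-3 or int 3-1, with adjusted p of 0.0933 to 0.103, 0.0675 to 0.0818, 0.152 to 0.165 and 0.116 to 0.141. Col27a1 and Col5a2 were also lost without a filter (0.078 and 0.0832), and Col5a2 on the TPM scale (0.053).

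Of the type IV chains, the ubiquitous pair rose and the pair of restricted distribution did not pass. Col4a1 and Col4a2 encode the chains of the common basement membrane network, with the first in the majority. Col4a1 stood at 37.8, 37.1 and 37.0 FPKM in int 2 and 67.3, 86.2 and 51.1 in int 3 (log2 change 0.82, SE 0.18, limma adjusted p = 0.0276). Col4a2 stood at 22.8, 23.0 and 23.5 FPKM in int 2 and 41.4, 55.2 and 31.1 in int 3 (log2 change 0.82, SE 0.19, limma adjusted p = 0.0363). For both, int 3-2 was highest, int 3-3 lowest and still above all of int 2, and the int 3 libraries spanned a factor of 1.68 and 1.78. The pair made up 92.9% to 98.0% of type IV FPKM in the 6 libraries.

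Col4a5 and Col4a6, whose chains join in basement membranes that include those of smooth muscle, did not pass and had the opposite order within int 3. Col4a5 stood at 3.28, 2.99 and 2.66 FPKM in int 2 and 3.29, 2.06 and 4.28 in int 3 (log2 change 0.05, SE 0.20, limma adjusted p = 0.885). Col4a6 stood at 1.13, 1.07 and 1.22 FPKM in int 2 and 1.17, 0.647 and 1.99 in int 3 (log2 change 0.04, SE 0.21, limma adjusted p = 0.912). In both genes int 3-2 was below, and int 3-3 above, every int 2 library. For Col4a1 and Col4a2 the order within int 3 was the reverse, with every int 3 library above int 2. The sign of their small log2 changes turned without int 3-3 (-0.13 and -0.18), and that of Col4a5 also without int 2-3 (-0.0091). Col4a3 and Col4a4, the chains of kidney and lung basement membranes, were barely detected, at 0.0163 to 0.0820 and 0.0242 to 0.0997 FPKM. The calls of Col4a1 and Col4a2 were lost without int 2-1, int 2-2, int 2-3 or int 3-1 (0.106 to 0.111 and 0.126 to 0.134) and without a filter (0.0604 and 0.0761).

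Among the other collagens, both multiplexins, which carry sugar chains and lie in the basement membrane zone, rose. Col18a1, whose GC-rich upstream sequence is printed with the promoters, is the precursor of the anti-angiogenic fragment endostatin and stood at 4.38, 4.73 and 4.72 FPKM in int 2 and 17.9, 20.8 and 15.7 in int 3. All int 3 libraries lay more than 3 times above int 2, and Col18a1 had the largest log2 change of the 26 chains, from 4.61 ± 0.203 to 18.1 ± 2.60 FPKM (SD, n = 3 libraries each; log2 change 1.76, SE 0.10, limma adjusted p = 0.000442). It passed with any 1 library left out, at adjusted p of 0.000101 to 0.00692. Col15a1, its closest relative and a gene of the basement membrane zone of vessels and muscle, stood at 7.62, 7.65 and 7.54 FPKM in int 2 and 13.1, 15.4 and 10.4 in int 3 (log2 change 0.68, SE 0.13, limma adjusted p = 0.0196). Col15a1 rose with no overlap but was lost without int 2-1, int 2-2, int 2-3 or int 3-1 (0.0869 to 0.0888).

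All 4 tested chains of type VI collagen, the beaded filament that links cells to the fibrillar matrix, rose, and the 3 int 3 libraries were close to each other. Col6a1 stood at 38.7, 40.0 and 37.8 FPKM in int 2 and 53.3, 53.6 and 57.7 in int 3 (log2 change 0.49, SE 0.05, limma adjusted p = 0.0031). Col6a2 stood at 23.8, 22.6 and 23.0 FPKM in int 2 and 30.4, 28.7 and 33.3 in int 3 (log2 change 0.40, SE 0.07, limma adjusted p = 0.0128). Col6a3, the longest of the classical chains, stood at 7.39, 7.07 and 7.20 FPKM in int 2 and 12.0, 11.2 and 11.3 in int 3 (log2 change 0.61, SE 0.05, limma adjusted p = 0.00155). In none of these genes did the groups overlap, and int 3-3 was not the lowest int 3 library for any of them. Col6a4, which can replace Col6a3 in the helix, was far less abundant at 1.13, 1.30 and 1.07 FPKM in int 2 and 1.92, 1.98 and 1.92 in int 3 (log2 change 0.44, SE 0.07, limma adjusted p = 0.0117). Its relatives Col6a5 and Col6a6 were not tested, with 0.117 to 0.391 FPKM and with 0, 4 and 0 fragments in int 2 and 1, 4 and 0 in int 3. Without int 2-1, int 2-2, int 2-3 or int 3-1 Col6a2 no longer passed (0.0588 to 0.0749), nor did it with median-of-ratios scaling (0.0506), and Col6a4 was lost without int 2-1, int 2-3 or int 3-1 (0.0646 to 0.069).

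Type VIII collagen is a short-chain network former of vessel walls, and 1 of its 2 chains, Col8a2, was lower in int 3. Col8a2 stood at 1.65, 1.98 and 1.495 FPKM in int 2 and 0.595, 0.472 and 0.878 in int 3, every int 3 library below every int 2 library. It fell (log2 change -0.72, SE 0.12, limma adjusted p = 0.0127), on 254, 305 and 229 fragments in int 2 and 91, 72 and 138 in int 3. A gene that met the filter through int 2 alone, as Col8a2 did, had to be lower in int 3. The call was lost without int 2-1, int 2-2 or int 3-1 (0.064 to 0.0679). Its partner chain Col8a1 stood at 2.38, 2.72 and 3.07 FPKM in int 2 and 2.36, 2.86 and 1.26 in int 3 and did not pass (limma adjusted p = 0.403), with int 3-3 the lowest library. Col10a1, the third gene of this group and a chain of growth plate cartilage, was at 0 in int 2 and int 3-1 and at 0.0376 and 0.0364 FPKM in int 3-2 and int 3-3.

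None of the 5 tested fibril-associated collagens passed in limma, and 1 of them, Col16a1, had an unadjusted p under 0.05. Col12a1, which bridges type I fibrils, was level at 4.66, 4.26 and 4.36 FPKM in int 2 and 4.22, 4.11 and 4.598 in int 3 (log2 change -0.03, SE 0.07, limma adjusted p = 0.774), and the sign of its change turned on the TPM scale (0.03). Col14a1, another fibril-bound chain, stood at 3.56, 3.26 and 3.15 FPKM in int 2 and 2.49, 3.34 and 1.51 in int 3, with int 3-3 the lowest (limma adjusted p = 0.251, and 0.0413 without int 3-2). Col16a1, a minor fibril-associated chain, stood at 7.996, 8.58 and 8.66 FPKM in int 2 and 9.999, 11.2 and 8.81 in int 3. Its int 3 values all lay above int 2, yet it missed the threshold (limma adjusted p = 0.152, and 0.0193 without int 3-3). Col20a1 stood at 1.12, 0.952 and 1.17 FPKM in int 2 and 1.76, 3.10 and 0.931 in int 3, the widest spread of any tested chain within int 3, a factor of 3.33 (limma adjusted p = 0.305, and 0.023 without int 3-3). Col9a2, a chain of cartilage fibrils, stood at 1.92, 1.81 and 1.73 FPKM in int 2 and 2.35, 2.32 and 1.40 in int 3 (limma adjusted p = 0.708, and 0.0394 without int 3-3), while its partners Col9a1 and Col9a3 did not exceed 0.103 and 0.200 FPKM. Col19a1 and Col22a1 stayed at or below 0.0199 and 0.0863 FPKM.

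The membrane-spanning collagens were scarce. Col23a1 stood at 3.59, 3.35 and 3.32 FPKM in int 2 and 3.63, 5.04 and 2.63 in int 3, with int 3-2 above and int 3-3 below the int 2 range, and did not pass (limma adjusted p = 0.795). Its log2 change of 0.08 turned to -0.11 without int 3-2. Col13a1, a chain of cell-matrix adhesions, stood at 0.802, 0.663 and 0.627 FPKM in int 2 and 1.21, 1.56 and 0.956 in int 3. Col13a1 lies just outside the filter with 2 libraries at FPKM 1 or more, and although its groups did not overlap it did not pass when no filter was applied (limma adjusted p = 0.117). Col25a1 ranged from 0.107 to 0.411 FPKM and was highest in int 3-1 and int 3-2, at 0.399 and 0.411. Col17a1, the hemidesmosome collagen of squamous epithelium, did not exceed 0.0931 FPKM, and Col7a1, which anchors that epithelium to the dermis, did not exceed 0.181. The 6 listed markers of squamous epithelium summed to 0.367 to 0.676 FPKM in int 2 and 0.671 to 1.03 in int 3, with Dsg3 at 0 in all libraries but int 3-1. Col28a1, a chain of peripheral nerve, stood at 1.09, 1.09 and 0.939 FPKM in int 2 and 1.53, 1.82 and 0.905 in int 3 (limma adjusted p = 0.348, and 0.0188 without int 3-3), and Col26a1 did not exceed 0.128. Of all 18 untested chains, 17 stayed below FPKM 1 in every library.

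Because FPKM is per length, levels of chains that build 1 molecule can be compared within a library. The ratio of Col4a1 to Col4a2 was 1.66, 1.61 and 1.58 in int 2 and 1.63, 1.56 and 1.65 in int 3, so the pair kept its proportion while its FPKM differed between libraries. For type VI the ratio of Col6a1 to Col6a2 was 1.63, 1.77 and 1.64 in int 2 and 1.75, 1.87 and 1.73 in int 3, and the groups overlapped. Col6a3 gained on Col6a1, with a ratio of 0.191, 0.177 and 0.190 in int 2 and 0.225, 0.210 and 0.196 in int 3, where the groups did not overlap. Type I differed, since the ratio of Col1a1 to Col1a2 was 0.639, 0.606 and 0.625 in int 2 and 0.717, 0.8998 and 0.618 in int 3. It was raised in int 3-2 and int 3-1 and within the int 2 range in int 3-3. In type V the ratio of Col5a1 to Col5a2 was 0.617, 0.576 and 0.589 in int 2 and 0.774, 0.778 and 0.714 in int 3, higher in every int 3 library. The ratio of Col18a1 to Col15a1, which are separate molecules of 1 family, was 0.575, 0.619 and 0.627 in int 2 and 1.36, 1.35 and 1.51 in int 3. The groups lay far apart, and the 3 int 3 libraries were close to each other. Between Col8a1 and Col8a2 the ratio was 1.44, 1.38 and 2.05 in int 2 and 3.96, 6.07 and 1.43 in int 3, which overlapped through int 3-3. Between Col4a5 and Col4a6 it was 2.90, 2.79 and 2.19 in int 2 and 2.83, 3.18 and 2.15 in int 3, again with overlap. The ratios are descriptions and were not tested.

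**Figure D3:**
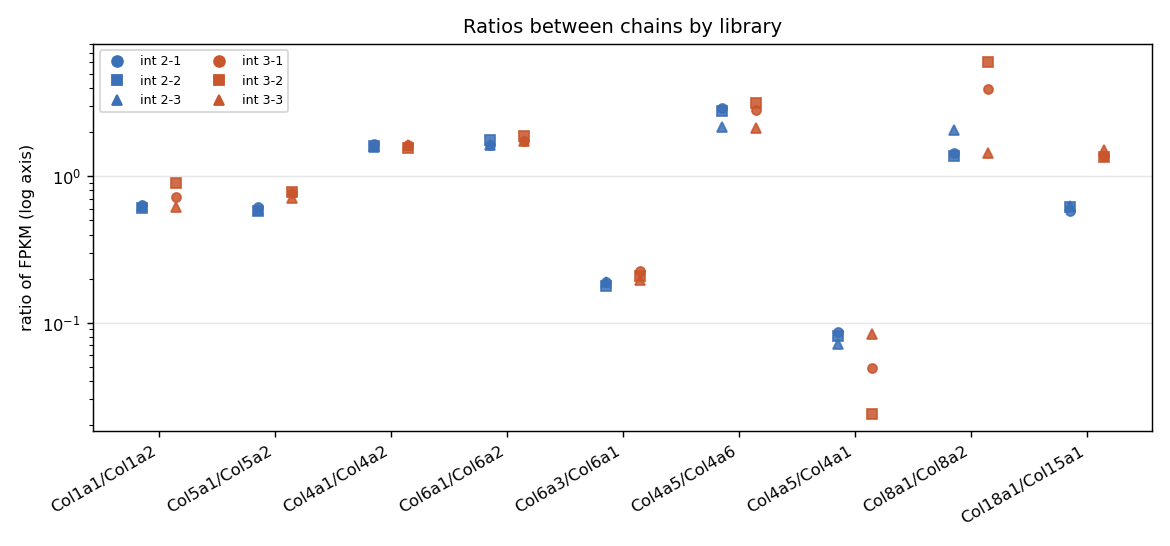
Ratio of FPKM between 2 chains in each library, on a log axis, with the libraries coloured and shaped as in the plot of FPKM by library. Col4a1 over Col4a2 stays between 1.56 and 1.66 in all 6 libraries, while Col18a1 over Col15a1 is 0.607 ± 0.0281 (SD, n = 3) in int 2 and 1.41 ± 0.0863 (SD, n = 3) in int 3.

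Several chains of 1 molecule also share a place in the genome, which the choice of members did not use. In the RefSeq gene order (GRCm38.p6) Col4a1 and Col4a2 are neighbours on chromosome 8, Col4a5 and Col4a6 on X, Col4a3 and Col4a4 on 1, and Col6a1 and Col6a2 on 10. Col4a1 and Col4a2 are read away from each other, and their annotated starts overlap by 22 bases, at chr8:11312805-11312826 of that build. Of the chain ratios given, theirs spanned the narrowest range over the 6 libraries. The starts of Col4a5 and Col4a6, also read in opposite directions, lie 1343 bases apart. Col3a1 and Col5a2, chains of different types, are neighbours on chromosome 1 as well, and the int 3 libraries spanned a factor of 1.03 for Col3a1 and 1.29 for Col5a2. Without strand information on the counting, reads in the overlap of Col4a1 and Col4a2 cannot be told apart, although the overlap is short beside the genes.

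The int 3 libraries separated the chains into sets by their spread. Relative to the int 2 mean, Col4a1 stood at 1.80, 2.31 and 1.37 in int 3-1, int 3-2 and int 3-3, Col15a1 at 1.72, 2.03 and 1.37 and Col1a1 at 1.53, 1.83 and 1.29. Each of these was highest in int 3-2 and lowest in int 3-3. Col3a1 stood at 1.29, 1.29 and 1.25, Col1a2 at 1.33, 1.27 and 1.30 and Col6a3 at 1.66, 1.56 and 1.57, with little difference between the libraries. Of the 14 chains that rose, 9 were lowest in int 3-3, 3 in int 3-2 and 2 in int 3-1. Over all 26 tested chains, 10 were at least 1.5-fold higher in int 3-2 than in int 3-3 and 3 at least 1.5-fold lower, beside 1933 and 989 of the 12525 tested genes.

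Markers of cells that could carry these transcripts moved as follows, and their part in the collagen values was not tested. The counts of markers that rose or fell stand beside 8.64% and 6.70% of all tested genes. The 6 blood endothelium markers, Pecam1, Cdh5, Kdr, Vwf, Plvap and Tie1, summed to 90.6 to 95.3 FPKM in int 2 and 117 to 205 in int 3, of which 2 rose (Vwf and Plvap) and 4 did not pass. In int 3-1, int 3-2 and int 3-3 that sum was 1.69, 2.20 and 1.26 times the int 2 mean, the order of Col4a1, Col4a2 and Col15a1. This order was not particular to endothelium. The pericyte, fibroblast, lymphatic, mesothelium, adipocyte, skeletal muscle, and cartilage and bone sums had it too. The smooth muscle, simple epithelium, macrophage and B cell sums had the reverse order, and the glia and squamous sums had neither. The 6 pericyte markers summed to 93.9 to 94.6 FPKM in int 2 and 82.6 to 283 in int 3, at 1.88, 3.00 and 0.876 times the int 2 mean, and 1 rose (Kcnj8). The 7 fibroblast markers summed to 303 to 304 FPKM in int 2 and 282 to 339 in int 3, where 1 rose (Pdgfra), 1 fell (Mfap5) and 5 did not pass. Dcn and Lum, abundant fibroblast transcripts, had log2 changes of 0.08 and 0.13 and did not pass. Of the 6 smooth muscle markers 2 fell (Des and Cnn1), and their sum was 4028 to 4041 FPKM in int 2 and 3230.1 to 3805 in int 3, at 0.877, 0.801 and 0.944 times the int 2 mean. Mesothelial markers were low but all 3 tested ones rose, of which Upk3b and Upk1b met the filter only through int 3 and so had to be higher there. Their sums, over 5 markers, were 1.70 to 2.15 FPKM in int 2 and 7.995 to 13.0 in int 3, and Wt1 and Lrrn4 were each at 0 in 1 int 2 library. Adipocyte markers summed to 42.7 to 45.5 FPKM in int 2 and 72.3 to 149 in int 3, where 1 of 2 tested rose (Fabp4) and Lep was at 0 in 1 int 2 library. Nearly all of that sum was Fabp4, at 41.6, 40.9 and 43.7 FPKM in int 2 and 98.4, 131 and 70.4 in int 3. In int 3-3 Adipoq, Plin1 and Cidec lay within their int 2 ranges, at 1.34, 0.124 and 0.471 FPKM, and Lep above it, at 0.0438. The 5 enteric glia markers summed to 31.8 to 33.4 FPKM in int 2 and 39.4 to 41.8 in int 3 and 1 rose (Gfap, which met the filter only through int 3 and so had to be higher there). The 5 macrophage markers summed to 51.3 to 52.5 FPKM in int 2 and 78.9 to 85.9 in int 3 and 3 rose, and the 5 lymphatic markers to 18.4 to 19.2 FPKM in int 2 and 9.38 to 10.8 in int 3, of which 2 of 3 tested fell. The 6 markers of simple epithelium, among them Epcam and Vil1, summed to 2941 to 2975 FPKM in int 2 and 2647 to 3189 in int 3, and 0 of them passed (limma, also 0 at an unadjusted p under 0.05). Skeletal muscle markers summed to 18.6 to 20.1 FPKM in int 2 and 19.1 to 22.7 in int 3, with Acta1 higher and Myh4 at 0 in all libraries but int 3-2, and B cell markers to 131 to 137 FPKM in int 2 and 4.44 to 37.9 in int 3, all 5 of the latter falling.

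**Figure D4:**
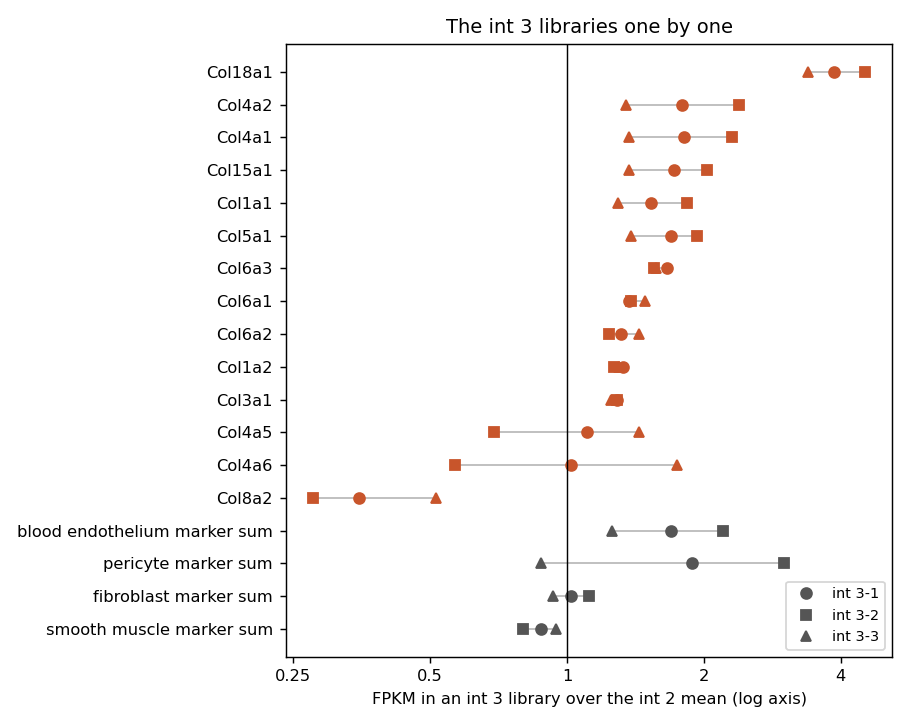
FPKM in each int 3 library divided by the int 2 mean, on a log axis, for 14 collagen chains (orange) and the summed markers of 4 cell types (grey). The vertical line at 1 is the int 2 mean. Col18a1 lies furthest right, at 3.87, 4.52 and 3.39, and Col4a5 and Col4a6 straddle the line. The endothelial, pericyte and fibroblast sums have the order of Col4a1, and the smooth muscle sum has the reverse.

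Genes that build, hold, bind and cut collagen were examined by list, and those named are the 3 with the smallest p in each direction of a list unless said otherwise. Of 26 tested biosynthesis genes 7 rose, 0 fell and 19 did not pass, with a median log2 change of 0.31. Thus 26.9% of these genes were called, beside 15.3% of all 12525 tested genes (8.64% higher and 6.70% lower, median log2 change 0.03). Crtap, a subunit of the prolyl 3-hydroxylase complex, stood at 13.8, 14.2 and 12.7 FPKM in int 2 and 17.9, 19.8 and 16.9 in int 3 and Pcolce, an enhancer of propeptide removal, at 28.9, 28.4 and 25.8 FPKM in int 2 and 34.5, 35.1 and 35.8 in int 3. Fkbp10, a collagen chaperone, stood at 6.25, 5.23 and 6.39 FPKM in int 2 and 8.41, 8.46 and 7.97 in int 3, and the adjusted p-values of the 3 were 0.0196, 0.0134 and 0.0206 (limma). Of 2 genes named after their values were seen, Serpinh1, the collagen-specific chaperone, stood at 91.8, 92.4 and 94.4 FPKM in int 2 and 113, 129.8 and 92.0 in int 3 (limma adjusted p = 0.211) and Lox, which cross-links fibrils, at 2.17, 2.12 and 1.91 FPKM in int 2 and 3.45, 4.68 and 2.70 in int 3 (limma adjusted p = 0.0589), and neither passed. Without int 2-1, int 2-2, int 2-3 or int 3-1 the calls of Crtap, Pcolce and Fkbp10 were lost (0.0687 to 0.0923, 0.0514 to 0.0656 and 0.061 to 0.0952), and so were all other calls of the list. The count was 20 without int 3-3, 11 with median-of-ratios scaling or quantile normalization and 4 without a filter. The genes that rose over the whole table numbered 1082 with all libraries, 3124 without int 3-3, 1041 and 1061 with these scalings and 896 without a filter.

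Among 18 tested proteins that coat or link fibrils 4 rose, 3 fell and 11 did not pass (median log2 change 0.11). That made 38.9% called, beside 15.3% of all tested genes (8.64% higher and 6.70% lower). Fn1, fibronectin, stood at 30.7, 31.5 and 32.1 FPKM in int 2 and 54.2, 46.9 and 61.2 in int 3 (log2 change 0.76, SE 0.10, limma adjusted p = 0.00537), and Tnc, a glycoprotein of injured tissue, at 11.8, 11.9 and 12.0 FPKM in int 2 and 24.6, 30.6 and 19.9 in int 3 (log2 change 0.99, SE 0.14, limma adjusted p = 0.00794). Bgn, a small leucine-rich proteoglycan, stood at 85.5, 85.7 and 83.9 FPKM in int 2 and 111, 109.6 and 113 in int 3 (log2 change 0.38, SE 0.04, limma adjusted p = 0.00328). Of the other proteoglycans of this kind in the list, Ogn, Aspn and Prelp fell, and Dcn, Lum, Podn and Fmod did not pass, with log2 changes of 0.08, 0.13, 0.29 and -0.22. Ogn stood at 86.5, 84.5 and 84.3 FPKM in int 2 and 41.3, 32.1 and 46.2 in int 3 (log2 change -1.09, SE 0.13, limma adjusted p = 0.004), Aspn at 36.0, 39.2 and 35.9 FPKM in int 2 and 29.1, 28.1 and 24.2 in int 3 (log2 change -0.44, SE 0.08, limma adjusted p = 0.0177) and Prelp at 31.7, 31.6 and 32.4 FPKM in int 2 and 25.1, 27.6 and 24.7 in int 3 (log2 change -0.30, SE 0.06, limma adjusted p = 0.0199). Without int 2-1, int 2-2 or int 2-3 Aspn and Prelp no longer passed, and Prelp also not without int 3-1 (0.0731 to 0.0883 and 0.0927 to 0.102), and on the TPM scale they had adjusted p of 0.052 and 0.0952, which left 1 gene of the list lower. Without int 3-3, 7 genes of the list rose, as did 3124 of all 12525 tested genes.

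Of 6 tested collagen receptors 2 rose, 0 fell and 4 did not pass (median log2 change 0.41). That made 33.3% called, beside 15.3% of all tested genes (8.64% higher and 6.70% lower). Ddr2, a kinase receptor for fibrillar collagen, stood at 5.90, 6.33 and 6.58 FPKM in int 2 and 8.87, 9.76 and 7.63 in int 3 (log2 change 0.42, SE 0.09, limma adjusted p = 0.0317), and Mrc2, an endocytic collagen receptor, at 1.26, 1.29 and 1.34 FPKM in int 2 and 2.74, 3.58 and 2.14 in int 3 (log2 change 0.72, SE 0.14, limma adjusted p = 0.0208). Both were lost without int 2-1, int 2-2, int 2-3 or int 3-1 (limma adjusted p of 0.101 to 0.136 and 0.0867 to 0.0947), which left 0 of the list. Both were also lost without a filter (0.0618 and 0.0516). Without int 3-3, 5 receptors rose, as did 3124 of all 12525 tested genes. Among 9 tested genes of collagen breakdown and its inhibitors 6 rose, 1 fell and 2 did not pass (median log2 change 0.67). That made 77.8% called, beside 15.3% of all tested genes. The count and the median include Mmp3, Mmp13 and Fap, which met the filter through 1 group alone, so that their direction was fixed in advance. Mmp3, stromelysin, stood at 0.583, 0.838 and 0.423 FPKM in int 2 and 16.3, 22.6 and 7.998 in int 3 (log2 change 3.27, SE 0.34, limma adjusted p = 0.00279), and Mmp2, a gelatinase that also cuts type IV collagen, at 11.9, 10.4 and 10.6 FPKM in int 2 and 22.6, 20.2 and 26.4 in int 3 (log2 change 1.00, SE 0.11, limma adjusted p = 0.00283). Timp1, an inhibitor of these proteases, stood at 1.02, 1.47 and 2.01 FPKM in int 2 and 10.8, 14.1 and 7.76 in int 3 (log2 change 2.24, SE 0.23, limma adjusted p = 0.00266), so an inhibitor rose beside the proteases. Mmp3 met the filter only through its int 3 values, and so did Mmp13, an interstitial collagenase named after its values were seen, at 0.589, 0.532 and 0.285 FPKM in int 2 and 8.25, 11.8 and 3.77 in int 3 (log2 change 2.50, SE 0.35, limma adjusted p = 0.00698). Fap, a fibroblast protease, stood at 1.76, 1.51 and 1.68 FPKM in int 2 and 0.910, 0.880 and 0.960 in int 3 and fell (log2 change -0.47, SE 0.07, limma adjusted p = 0.01). Fap met the filter only through int 2, and its call was lost without int 2-1, int 2-3 or int 3-1 (0.0582 to 0.0631). Of 14 tested partners of type IV collagen in the basement membrane 5 rose, 0 fell and 9 did not pass (median log2 change 0.46). That made 35.7% called, beside 15.3% of all tested genes. The laminin chain genes Lamb1 and Lama4 stood at 9.43, 10.1 and 10.3 FPKM in int 2 and 18.5, 16.9 and 20.7 in int 3 and at 4.91, 5.20 and 5.49 FPKM in int 2 and 8.39, 8.23 and 8.03 in int 3 (limma adjusted p = 0.0022 and 0.00278). Both lay above int 2 in every int 3 library, and Lama4 was nearly level across int 3. Without int 3-3, 11 genes of this list rose, again beside 3124 of all 12525 tested genes.

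**Figure D5:**
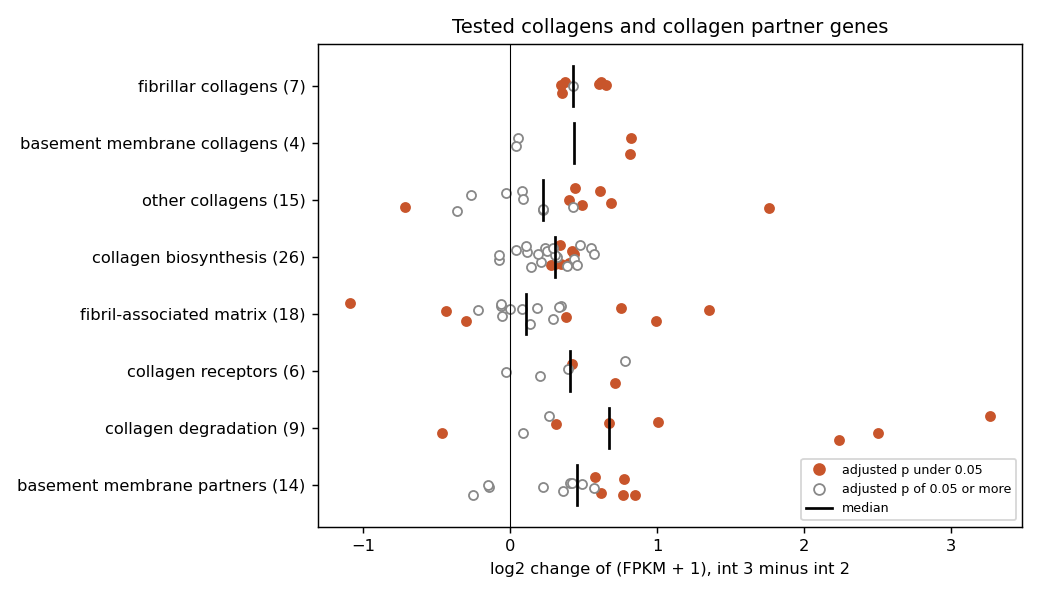
Log2 change of (FPKM + 1), int 3 minus int 2, for each tested gene of the 3 collagen classes and of the 5 partner lists, with the number of tested genes in brackets. Orange points passed at an adjusted p under 0.05 and black bars are medians. The list medians run from 0.11 for fibril-associated matrix to 0.67 for collagen degradation, and the vertical offset of points within a row has no meaning.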

How the data were processed

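Per the labels' protocols, total RNA of mouse large intestine was extracted with TRIzol and 6 libraries were built with the VAHTS Universal V10 kit. The deposited table gives FPKM by gene symbol as the authors computed it, with GRCm39 as the genome build per the submitters' processing notes, and the aligner, counter and annotation are not given in the sources used here. Totals of 34.0 to 35.1 M fragments were recovered from the FPKM steps, with whole fragments for 98.8% of 12525 genes. Genes that reached FPKM 1 in 3 or more libraries were tested on log2(FPKM + 1) with limma 3.58.1 (R 4.3.3; two-sided, trended empirical Bayes, Benjamini-Hochberg over all 12525), and a fold change on this scale understates the change of low genes. Class sums were tested by exact permutation over libraries. The limma test was checked on simulated data of 12525 genes in which 200 were changed. It recovered 69.9% of 2-fold changes with 4.81% false calls at equal spread, and made 19.6% false calls when each group kept its own measured spread. The simulation drew each gene independently and changed 200 genes, where the real data gave 1921 calls. Neither share therefore measures the false calls among the real ones.

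Values in every library were given for the 4 most abundant chains of each class, every chain past the threshold, chains near the filter and their partner chains, and for the 3 partner genes with the smallest p per list and direction. One gene that this rule selects is not reported here. The members and lists were chosen with earlier results of these data known. Alternatives changed the pseudocount, filter, scaling, weights, prior, replicate block and libraries, and limma voom on the recovered fragments was added after the data were seen. Promoter sequences and gene order came from RefSeq tables of GRCm38.p6, matched by symbol, and no coordinate was converted between builds.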

Additional observations from a re-analysis of the deposited data

How the results depend on the processing

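Of the 15 chains past the threshold, 5 (Col18a1, Col1a2, Col3a1, Col6a1 and Col6a3) passed with any 1 library left out. None of the 15 changed direction under any of the 18 alternatives that tested it. The groups of all 15 did not overlap, so most alternatives could not have turned the direction. These were the changes of libraries, pseudocount, filter, weights, prior and block. Only the other scalings and voom could have turned it. With int 2 averaged to 1 sample, limma called 0 chains higher and 0 lower in every class and 0 genes in every partner list, and 0 of all 12525 genes, of which 1130 had an unadjusted p under 0.05. That fit takes its spread from int 3 alone. The replicate numbers did not pair the libraries: correlations of same-numbered libraries' deviations were -0.015, 0.0041 and -0.022, and no int 3 library correlated best with its own number. With a replicate block 889 genes were called in place of 1921, and the counts were 8 chains higher and 0 lower (fibrillar 3, type IV 0, other chains 0 lower), biosynthesis 1 higher, receptors 0 higher and degradation 0 lower. Without a filter on low values the counts higher were 0 for type IV chains, 4 for biosynthesis and 0 for receptors. With a mean FPKM of 5 or more, 0 chains were lower (0 of the other chains), receptors had 1 higher and degradation 0 lower, since fewer genes were tested. Median-of-ratios scaling and quantile normalization each gave 11 biosynthesis genes higher, TPM gave 1 fibril-associated gene lower, and voom gave 1 basement membrane partner lower. Where no cause is given, the cause was not tested.

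With 1 library left out, the chains higher ranged from 5 to 19 and those lower from 0 to 2, with fibrillar chains higher from 2 to 7, type IV from 0 to 2 and other chains from 3 to 10 higher and 0 to 2 lower. Biosynthesis genes higher ranged from 0 to 20, fibril-associated genes from 3 to 7 higher and 1 to 3 lower, receptors from 0 to 5, degradation genes from 4 to 7 higher and 0 to 1 lower, and basement membrane partners from 4 to 11 higher and 0 to 1 lower. Over all 12525 tested genes the count higher ranged from 372 to 3124. The log2 difference of the summed FPKM ranged from 0.39 to 0.47 for fibrillar, 0.63 to 0.98 for type IV and 0.49 to 0.55 for other chains. The sign of 4 chains that did not pass turned: Col12a1 to 0.0284 on the TPM scale, Col23a1 to -0.1087 without int 3-2 (up to 0.2588 without int 3-3), Col4a5 to -0.0091 without int 2-3 and -0.1313 without int 3-3 (up to 0.2623 without int 3-2), and Col4a6 to -0.1794 without int 3-3 (up to 0.2506 without int 3-2). The 17 chains below FPKM 1 in every library were not in the test, and the log2(FPKM + 1) scale flattens differences between such low values.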

Other observations

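The counting error of the recovered fragments was set against the spread within each group. For the 26 tested collagen chains the mean chi-square per degree of freedom was 2.63 in int 2 and 129 in int 3, beside 2.80 and 68.4 over all genes with whole fragments, where a value of 1 is the spread of counting alone. The int 3 libraries spread more widely than the int 2 libraries for 25 of the 26 chains and for 10453 of the 12525 tested genes.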
